A study of Mus musculus with 6 samples.

Results

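The genes described are 10 members of the insulin-like growth factor (IGF) system: the ligands Igf1 and Igf2, the receptors Igf1r, Igf2r and Insr, and the binding proteins Igfbp2, Igfbp3, Igfbp4, Igfbp5 and Igfbp6. They were found by symbol among the 48709 genes of the count table, and all 10 passed the filter on low counts that left 16699 genes to test. Igfbp5 was selected on its difference between these same knock-in and wild-type libraries, and the others were set beside it as genes of the same system. The Igfbp5 difference is therefore given as a description with no test.

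RNA was sequenced from bulk cerebellum of C57BL/6J mice aged 40 weeks. The 3 knock-in samples (Kihet) carried an SCA7 allele coding for 140 glutamines beside one coding for 5, and the 3 wild-type samples (WT) were listed as wildtype with no repeat length. SCA7 is spinocerebellar ataxia type 7, a disease of expanded glutamine repeats in ataxin-7. Libraries held 34630391 to 39826478 counts in knock-in and 39528292 to 49127673 counts in wild type, and the members had between 241 and 9941 counts in a library. The labels do not say whether the samples of a group are separate animals, so p-values here rest on a spread between samples that may be technical. Markers of Purkinje cells, granule neurons and Bergmann glia had counts in every library, with no listed marker of these 3 types at 0.

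IGF ligands are secreted peptides that act through the receptor tyrosine kinases encoded by Igf1r and Insr, which signal to the PI3K and AKT kinases. Igf2r encodes a receptor that takes up IGF2 and sends it, with mannose-6-phosphate-tagged enzymes, to lysosomes. Binding proteins hold the ligands outside the cell and can lengthen their life, keep them from receptors or release them when proteases cut the binding protein. In the brain, choroid plexus and meninges are known sources of Igf2, and IGF1 signalling supports growth and survival of cerebellar neurons.

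The 2 binding protein genes with the greatest difference between the groups went in opposite directions. Igfbp5 was at 0.424 times its wild-type mean in knock-in cerebellum and Igfbp4 was at 2.2 times. Their upstream sequences are shown with that of Igfbp2, the chromosomal neighbour of Igfbp5, because these genes of one family differ in how they varied. Each line gives the 250 bases before the RefSeq start (GRCm38.p6), read along the gene's strand, with TATAAA or TATTTAA in capitals. The windows are chr1:72874866-72875115 on the minus strand for Igfbp5, chr11:99040994-99041243 on the plus strand for Igfbp4 and chr1:72824230-72824479 on the plus strand for Igfbp2.
Igfbp5: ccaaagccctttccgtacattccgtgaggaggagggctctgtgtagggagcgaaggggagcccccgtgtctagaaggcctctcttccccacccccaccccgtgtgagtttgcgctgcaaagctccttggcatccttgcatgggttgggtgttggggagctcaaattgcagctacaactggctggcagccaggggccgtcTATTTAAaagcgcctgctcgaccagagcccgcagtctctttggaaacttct
Igfbp4: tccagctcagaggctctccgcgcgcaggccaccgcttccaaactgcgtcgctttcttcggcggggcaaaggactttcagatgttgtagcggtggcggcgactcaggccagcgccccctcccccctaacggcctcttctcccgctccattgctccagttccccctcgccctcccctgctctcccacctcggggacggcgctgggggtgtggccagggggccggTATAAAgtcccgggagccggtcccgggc
Igfbp2: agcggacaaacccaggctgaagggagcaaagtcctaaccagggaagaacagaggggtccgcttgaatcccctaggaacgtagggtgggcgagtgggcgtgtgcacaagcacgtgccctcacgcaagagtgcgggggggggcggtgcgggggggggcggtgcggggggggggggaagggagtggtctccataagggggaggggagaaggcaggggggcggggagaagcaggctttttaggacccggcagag
The Igfbp5 window held TATTTAA beginning 51 bases before the RefSeq start and 32 bases before the GENCODE start. The Igfbp4 window held TATAAA beginning 28 bases before the start in both annotations. Neither form was found in this Igfbp2 window, which held the GC box GGGCGG at 3 places. Of 32851 RefSeq promoter windows of this length, searched on both strands, 4.18% held TATTTAA, 12.4% TATAAA and 32.7% GGGCGG. The FOXO core GTAAACA, in 3.17% of all windows, was in none of the 3 windows shown. The form GCCNNNGGC, in 13.7% of all windows, was found once in the Igfbp5 window and not in the other two. The E-box form CANNTG, in 66.2% of all windows, was found once in each of the 3. None of these matches overlapped another within the 3 windows. RefSeq windows were matched for 9 members, Insr being the exception.

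Igfbp5 (ENSMUSG00000026185, chromosome 1, 72857932 to 72874884, minus strand, mm10) encodes a secreted binding protein that also attaches to extracellular matrix. It had 84.6, 105.1 and 75.2 CPM (read counts scaled to library size with edgeR and TMM factors) in the knock-in samples, against 203.7, 221.7 and 198.8 CPM in the wild-type samples. The highest knock-in sample lay far below the lowest wild-type sample. The means were 88.3 ± 15.3 CPM in knock-in and 208.1 ± 12.1 CPM in wild type (SD, n = 3 each), and the log2 fold change was -1.24 ± 0.12 (SE).

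Markers of several cerebellar cell types were lower in the same libraries. The 12 Purkinje cell markers summed to between 9082 and 10869 CPM in knock-in and between 13758 and 15567 CPM in wild type, with none at 0 in any library. Of these 12, 6 were called lower by edgeR (adjusted p no higher than 0.05), against 1.28% of all genes tested. In 9 of the 12 every knock-in sample was lower, against 11.5% of all genes tested. The groups overlapped for Pcp2, Skor2 and Foxp2, at 0.93, 0.93 and 1.07 times their wild-type means. Of 12 markers of Bergmann glia and astrocytes 5 were called lower, with sums of 5713 to 6594 CPM in knock-in and 8081 to 8341 CPM in wild type. Of 12 granule neuron markers 3 were called lower, with sums of 4966 to 5975 CPM in knock-in and 6389 to 7106 CPM in wild type. The marker lists were set with earlier results of these data known, so their counts of calls carry no test. The summed Purkinje markers were at 0.664 times their wild-type mean, against 0.424 times for Igfbp5. In bulk tissue RNA, fewer cells of a type and less RNA per cell cannot be told apart, and the part of these cell types in the Igfbp5 difference was not tested.

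The 5 protein-coding genes with the pattern most like Igfbp5 over the 6 samples were Trabd2b, Fam107b, Gpr63, Kctd12 and Rgs8. Likeness is the root mean square difference between centred log2(CPM + 0.1) values, so a small number means a similar pattern and a similar size. It was 0.108 for Trabd2b, a Wnt-degrading metalloprotease, and 0.125 for Fam107b. It was 0.131 for the orphan receptor Gpr63, 0.141 for Kctd12, whose protein binds GABA-B receptors, and 0.142 for Rgs8, a regulator of G protein signalling. Trabd2b had 14.6, 20.8 and 16.4 CPM in knock-in, against 41.7, 46.1 and 37.2 CPM in wild type. Within both groups replicate 2 was the highest for Trabd2b and for Igfbp5, which the choice of genes by likeness over these samples favours.

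Igfbp2 (ENSMUSG00000039323, chromosome 1, 72824503 to 72852474, plus strand) lies tail to tail with Igfbp5, and 5457 bases separate the pair. Its protein is a main IGF-binding protein of cerebrospinal fluid. It had 36.8, 19.7 and 52.1 CPM in knock-in and 17.4, 21.7 and 45.3 CPM in wild type. The groups overlapped widely, and replicate 3 was the highest in each. Its log2 fold change of 0.37 ± 0.37 (SE, n = 3 each) had a 95% interval of -0.46 to 1.19 and an edgeR adjusted p of 0.64. The tested gene beyond Igfbp2, the ribosomal protein gene Rpl37a, had 96.9, 89.3 and 116 CPM in knock-in and 86.5, 82.8 and 95.7 CPM in wild type (adjusted p 0.38). On the other side of Igfbp5 the nearest tested genes were 6030407O03Rik, a noncoding RNA 743.2 kb away, and the focal adhesion gene Tns1, 1035 kb away, with adjusted p values of 0.38 and 0.96. None of these 4 neighbours was called.

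**Figure D1:**
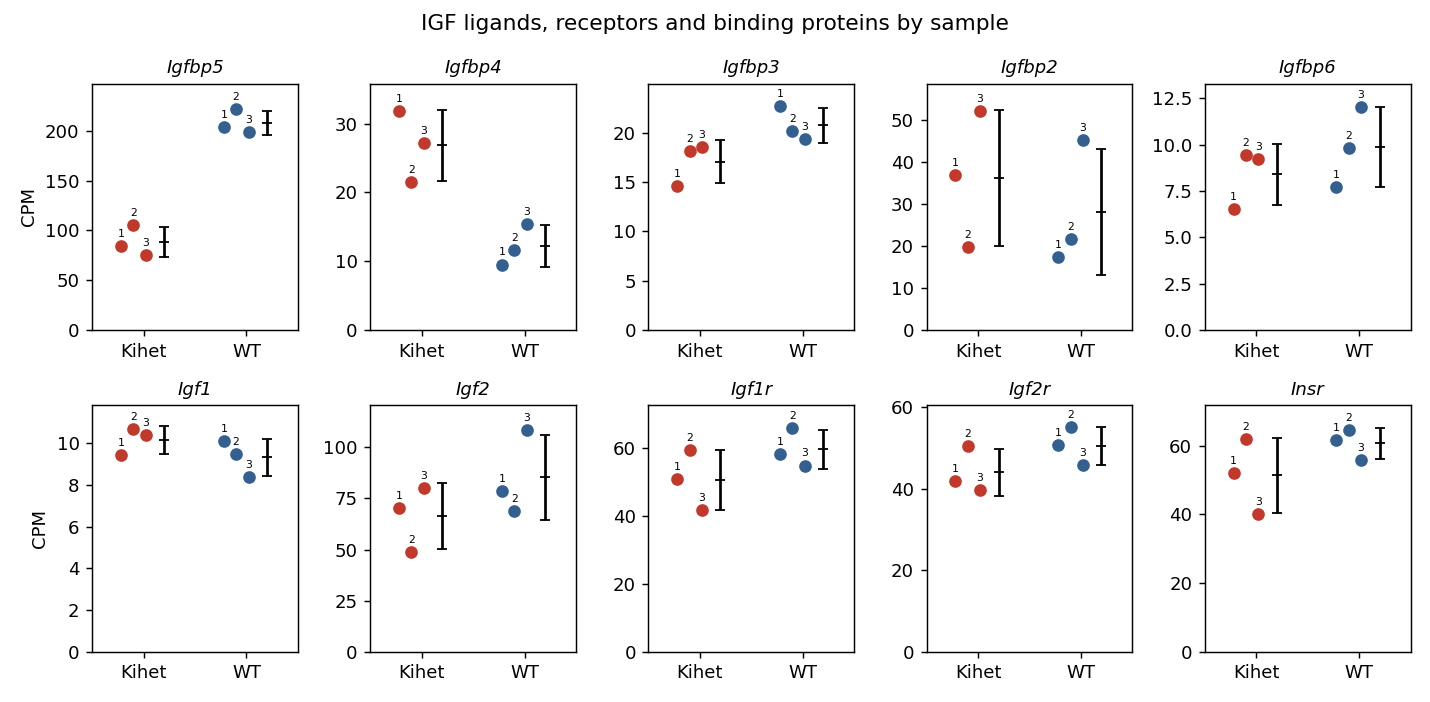
CPM of the 10 genes in each sample, with knock-in (Kihet, red) left of wild type (WT, blue), replicate numbers above the points, and the mean ± SD of 3 samples as black bars. The groups are apart for Igfbp5, Igfbp4 and Igfbp3, while the other 7 genes overlap.

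Igfbp4 (ENSMUSG00000017493, chromosome 11, 99041244 to 99054392, plus strand) encodes a binding protein known to restrain IGF action until the protease PAPP-A cuts it. It had 31.9, 21.5 and 27.1 CPM in knock-in, against 9.51, 11.7 and 15.4 CPM in wild type. Every knock-in sample was above every wild-type sample. The mean was 26.8 ± 5.18 CPM in knock-in and 12.2 ± 2.99 CPM in wild type (SD, n = 3 each). Igfbp4 rose by 1.14 ± 0.18 on the log2 scale (SE, 95% interval 0.73 to 1.55), with an edgeR adjusted p of 0.0178. Among the 9 members other than Igfbp5 it was the only one called, against 1.9% of all genes tested called in either direction and 0.629% called higher.

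The Igfbp4 call depended on single libraries. It was lost without wild-type replicate 1 (0.98, adjusted p 0.074) or 2 (1.11, adjusted p 0.060), and without knock-in replicate 1 (1.0, adjusted p 0.087) or 3 (1.13, adjusted p 0.065). Without wild-type replicate 3 or knock-in replicate 2 it was kept, at 1.33 and 1.28 with adjusted p values of 0.017 and 0.0037. The direction was the same in all 17 alternatives run.

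Brainstem markers were also uneven between the libraries. The 12 markers summed to 62.4, 8.26 and 37.8 CPM in knock-in and 3.07, 7.78 and 3.38 CPM in wild type. Of these, 6 passed the filter, 1 was called higher and the median log2 fold change of the 6 was 3.27. In knock-in 4 of the 12 were at 0 in some library and in wild type 6, among them the Hox genes Hoxa2, Hoxa3, Hoxb3 and Hoxb4. Most of the knock-in sums came from Slc6a2, Slc18a2 and Dbh, at 22.1, 16.5 and 14.4 CPM in replicate 1. The Hox genes did not share this rise. Mean CPM in knock-in and wild type was 0.12 and 0.12 for Hoxa2, 0.10 and 0.11 for Hoxa3, and 0.10 and 0.10 for Hoxb2. It was 0.17 and 0.13 for Hoxb3, 0.05 and 0.05 for Hoxb4, and 0.17 and 0.24 for Fev. Within knock-in, Igfbp4 at 31.9, 21.5 and 27.1 CPM had the same order as the brainstem sums, with replicate 2 the lowest in both. In wild type, replicate 2 had the highest sum and replicate 3 the most Igfbp4, at 15.4 CPM. The sum of 8.26 CPM in knock-in replicate 2 was near the 7.78 CPM of wild-type replicate 2. The brainstem markers also entered the fit as a covariate, itself partly tied to genotype. The log2 fold change of Igfbp4 was then 0.88 (adjusted p 0.91), and 3 genes were called in all. The part of brainstem tissue in the Igfbp4 difference was not tested.

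Igfbp3 (ENSMUSG00000020427, chromosome 11, 7206086 to 7213923, minus strand) encodes the main carrier of IGFs in blood. It had 14.6, 18.1 and 18.5 CPM in knock-in and 22.7, 20.2 and 19.3 CPM in wild type. The groups did not overlap, which was also so for 23.8% of all genes tested, and the gap between the nearest samples was small. The log2 fold change was -0.28 ± 0.12 (SE, 95% interval -0.54 to -0.02), with an unadjusted edgeR p of 0.0375 and an adjusted p of 0.25. Igfbp6 (ENSMUSG00000023046, chromosome 15, 102144362 to 102149511, plus strand), a binding protein that prefers IGF2, had 6.52, 9.44 and 9.22 CPM in knock-in and 7.7, 9.83 and 12 CPM in wild type. Its groups overlapped, at -0.23 ± 0.19 (SE, adjusted p 0.56).

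Per length, the binding protein transcripts had a different makeup in the groups. As CPM per kb of exon, Igfbp5 made up 27.2%, 37.0% and 20.5% of the sum over the 5 binding protein genes in knock-in, against 56.9%, 55.5% and 42.4% in wild type. Igfbp4 made up 13.9%, 10.3% and 10.1% in knock-in, against 3.61%, 3.97% and 4.47% in wild type. The ratio of Igfbp5 to Igfbp4 per length was 1.95, 3.59 and 2.04 in knock-in and 15.8, 14 and 9.48 in wild type. The groups are thus apart in each of these shares, which contain the gene picked for its difference and so carry no test.

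The sum over the 5 genes was 51.7, 47.3 and 61.1 CPM per kb in knock-in and 59.6, 66.6 and 78.1 CPM per kb in wild type, so knock-in replicate 3 reached into the wild-type range. Without Igfbp5 it was 37.7, 29.8 and 48.6 CPM per kb in knock-in and 25.7, 29.7 and 45 CPM per kb in wild type, with overlap between the groups.

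**Figure D2:**
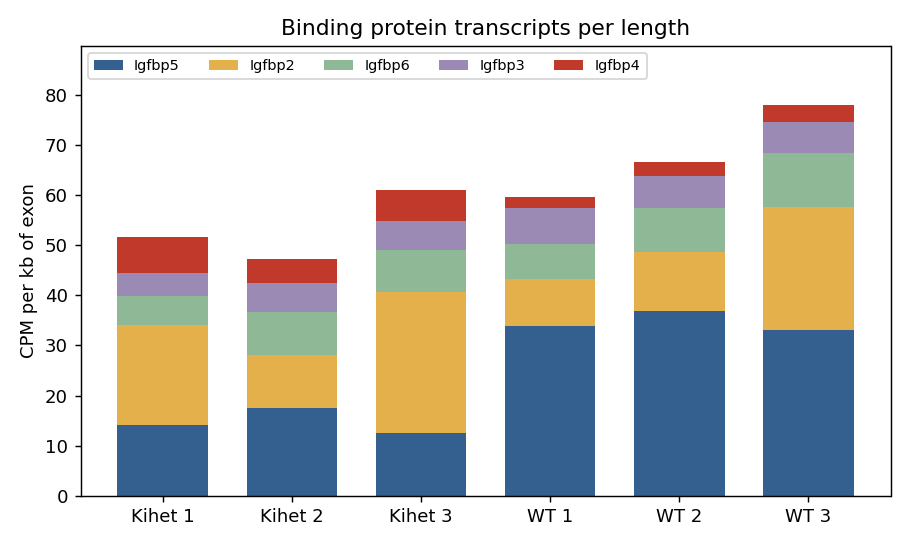
Stacked bars of the 5 binding protein genes in CPM per kb of exon, one bar per sample, with the 3 knock-in samples (Kihet) left of the 3 wild-type samples (WT). The Igfbp5 share at the bottom of each bar is between 20.5% and 37.0% in knock-in and between 42.4% and 56.9% in wild type, and the Igfbp4 share at the top is at least 10.1% in knock-in and at most 4.47% in wild type.

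In the order of levels per length, Igfbp2 came first in knock-in at 19.6 ± 8.77 CPM per kb (SD, n = 3), followed by Igfbp5 at 14.7 ± 2.54 and Igf2 at 11.6 ± 2.83 CPM per kb. The ranges of these 3 neighbours overlapped in knock-in. In wild type Igfbp5 came first at 34.6 ± 2.01 CPM per kb, above every sample of Igfbp2 at 15.2 ± 8.15 and Igf2 at 14.9 ± 3.63 CPM per kb, and the last pair overlapped. Igfbp4 held place 5 of 10 in knock-in at 6.08 ± 1.17 CPM per kb and place 9 of 10 in wild type at 2.76 ± 0.68 CPM per kb. In knock-in its range overlapped those of Igfbp6 above and Igfbp3 below, and in wild type that of Igf1r above it. The 3 receptor genes lay between 3.02 and 4.73 CPM per kb on average in knock-in and between 3.55 and 5.43 CPM per kb in wild type. Igf1 was the lowest of the 10 in both groups, at 1.03 ± 0.07 CPM per kb in knock-in and 0.94 ± 0.09 CPM per kb in wild type.

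Of the ligands, Igf2 was the more abundant and the more variable. Igf2 (ENSMUSG00000048583, chromosome 7, 142650766 to 142666816, minus strand) is imprinted and in most tissues is read from the paternal allele. It had 70.5, 48.7 and 80.3 CPM in knock-in and 78.8, 68.7 and 108.7 CPM in wild type. The groups overlapped, with the lowest value in knock-in replicate 2 and the highest in wild-type replicate 3. The log2 fold change was -0.36 ± 0.19 (SE, 95% interval -0.79 to 0.07), with an edgeR adjusted p of 0.36.

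Choroid plexus markers varied far more and placed the libraries in nearly the same order. The 14 markers summed to 292.4, 32.9 and 1347 CPM in knock-in and 557.2, 528.1 and 1973 CPM in wild type. None was at 0 in any library or called by edgeR. All 14 had a negative log2 fold change, with a median of -0.995, against 8127 of all 16699 genes tested. DESeq2 called 2 of the 14, against 5.59% of all genes tested. The groups did not overlap for 7.14% of the 14, against 23.8% of all genes tested. For Igf2 and for the choroid sum, wild-type replicate 3 was the highest, then knock-in replicate 3 and wild-type replicate 1, and knock-in replicate 2 was the lowest. The 12 meningeal markers summed to 116.9, 88 and 109.7 CPM in knock-in and 104.4, 91.8 and 116.5 CPM in wild type, with no call, none at 0 and overlapping groups. With the mean log2 CPM of the choroid markers as a covariate, the log2 fold change of Igf2 was 0.02 (adjusted p 0.94). That of Igfbp2 was 1.1 and was called higher (adjusted p 0.020). With this covariate 469 of the 16699 genes tested were called higher, against 105 without it. The covariate was 1.96, -0.24 and 3.25 in knock-in and 2.85, 2.59 and 4.23 in wild type, so it is itself partly tied to genotype. The part of choroid plexus tissue in the Igf2 and Igfbp2 values was not tested.

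**Figure D3:**
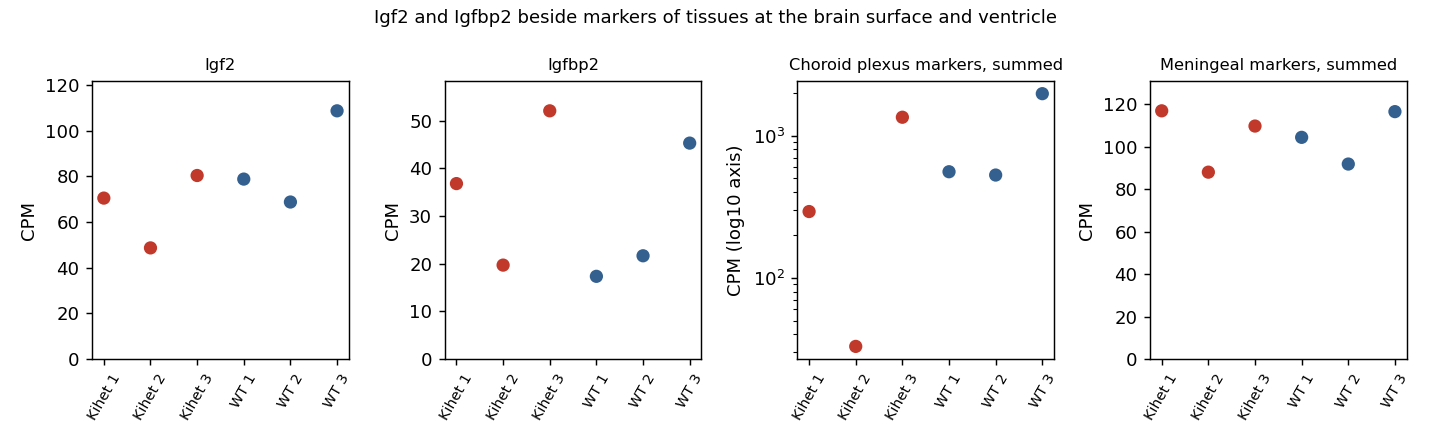
Igf2, Igfbp2, the summed choroid plexus markers (log10 axis) and the summed meningeal markers in CPM, one point per sample, with knock-in (Kihet, red) left of wild type (WT, blue). Knock-in replicate 2 is lowest for Igf2 and for the choroid plexus markers, at 48.7 and 32.9 CPM, and wild-type replicate 3 is highest for both, at 108.7 and 1973 CPM.

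Of the genes with the pattern most like Igf2, Smyd1, Morn2 and Lepr had root mean square differences of 0.068, 0.092 and 0.113. Smyd1 encodes a muscle lysine methyltransferase and Lepr the leptin receptor. Lepr had 2.41, 1.61 and 2.9 CPM in knock-in and 2.27, 2.46 and 3.38 CPM in wild type. Replicate 3 was the highest of its group for Lepr, as it was for Igf2, which the choice by likeness favours.

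Near Igf2 on chromosome 7, the imprinted noncoding RNA H19, which is read from the maternal allele and shares enhancers with Igf2, lay 72.6 kb away. H19 had 0.41, 0.38 and 0.56 CPM in knock-in and 0.74, 0.98 and 1.19 CPM in wild type. Every knock-in sample was below every wild-type sample, at a log2 fold change of -1.11 ± 0.305 (SE) with an edgeR adjusted p of 0.10, so it was not called. The next gene on that side, Mrpl23, and the 2 genes on the other side, Th and the noncoding R74862, had adjusted p values of 0.60, 0.71 and 0.32. R74862 was higher in every knock-in sample, at 10.4, 11 and 10.5 CPM in knock-in and 9.46, 9.02 and 9.14 CPM in wild type. Th encodes tyrosine hydroxylase of dopamine synthesis and had 16, 7.36 and 14.8 CPM in knock-in and 13.4, 15.4 and 14.6 CPM in wild type. Reads of Igf2 and its antisense gene Igf2os cannot be told apart if strand was not used in counting. Igf2os was listed with at most 13 counts in a library, against at least 1938 for Igf2.

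Igf1 (ENSMUSG00000020053, chromosome 10, 87858265 to 87937042, plus strand) differed little between samples. It had 9.42, 10.7 and 10.4 CPM in knock-in and 10.1, 9.5 and 8.37 CPM in wild type, and the groups overlapped. The coefficient of variation was 6.46% in knock-in, the lowest of the 10, and 9.52% in wild type, where Igfbp5, Insr, Igfbp3 and Igf2r were lower at 5.81%, 7.36%, 8.54% and 9.14%. The highest was that of Igfbp2, at 44.7% in knock-in and 53.5% in wild type. The log2 fold change was 0.12 ± 0.12 (SE, adjusted p 0.63), and its 95% interval ran from -0.14 to 0.39. Igf2 was 12.9, 7.89 and 13.4 times Igf1 per length in knock-in and 13.5, 12.5 and 22.5 times in wild type.

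The 3 receptor genes had lower means in knock-in by similar amounts, and none was called. Igf1r (ENSMUSG00000005533, chromosome 7, 67952827 to 68233668, plus strand) had 50.7, 59.4 and 41.8 CPM in knock-in and 58.1, 66 and 54.8 CPM in wild type. Insr (ENSMUSG00000005534, chromosome 8, 3122061 to 3279617, minus strand), the insulin receptor, had 52.1, 61.8 and 40.1 CPM in knock-in and 61.7, 64.5 and 55.8 CPM in wild type. Igf2r (ENSMUSG00000023830, chromosome 17, 12682406 to 12769664, minus strand) had 41.9, 50.6 and 39.6 CPM in knock-in and 50.6, 55.1 and 45.9 CPM in wild type. In all 3 genes replicate 2 was the highest and replicate 3 the lowest of its group, and the groups overlapped.

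The log2 fold changes were -0.24 ± 0.13 for Igf1r, -0.24 ± 0.14 for Insr and -0.20 ± 0.11 for Igf2r (SE), with edgeR adjusted p values of 0.35, 0.39 and 0.37. The lower bounds of the 95% intervals were -0.51, -0.55 and -0.44. These are long transcripts, with 16.8, 13.8 and 9.31 kb of exon for Igf1r, Insr and Igf2r. With offsets for GC content and length the log2 fold changes were -0.12, -0.13 and -0.15. With the choroid plexus covariate they were -0.46, -0.51 and -0.38 and all 3 were called lower, with adjusted p values of 0.020, 0.016 and 0.028. That covariate is partly tied to genotype, and the part of choroid plexus tissue in the receptor values was not tested. With it 984 of the 16699 genes tested were called lower, against 213 without it. Airn, the imprinted RNA that overlaps Igf2r on the other strand, had 8.82, 8.46 and 10.6 CPM in knock-in and 12.3, 9.71 and 10.8 CPM in wild type (adjusted p 0.38), and part of its reads would count for Igf2r if strand was not used.

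**Figure D4:**
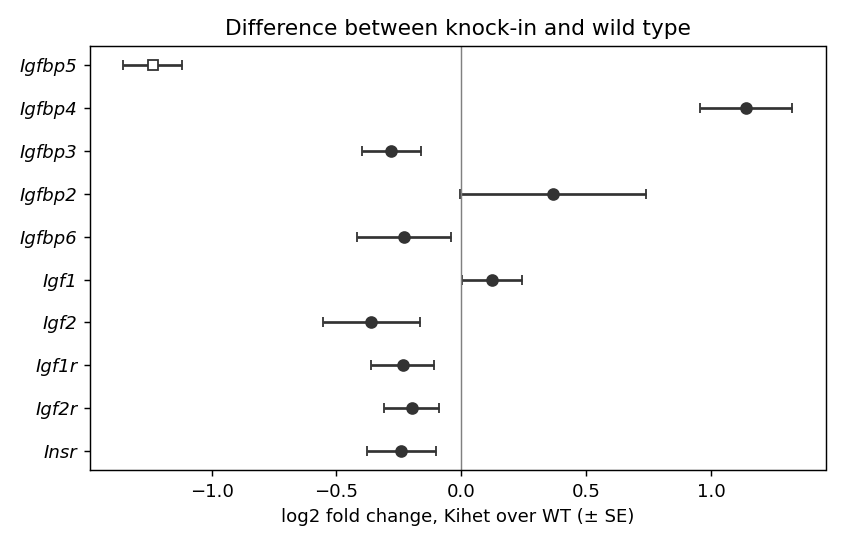
Log2 fold change of knock-in (Kihet) over wild type (WT) for the 10 genes, as points with the standard error of the fit, and an open square for Igfbp5, the gene picked for its difference. Igfbp5 lies at -1.24 and Igfbp4 at 1.14, and the other 8 genes lie between -0.36 and 0.37.

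Over the 9 members without Igfbp5 the median log2 fold change was -0.23, against 0.01 over all genes tested. Of these 9, 6 had a negative and 3 a positive value, against 8127 and 8572 of all 16699 genes tested. Igfbp3 and Igfbp4 were the 2 of 9 whose groups did not overlap, or 22.2%, against 23.8% of all genes tested.

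Other genes of the pathway were read from a list of 61, of which 51 passed the filter. None was called by edgeR, against 1.9% of all genes tested, while 14 of 51 had an unadjusted edgeR p under 0.05, or 27.5%, against 18.1% of all genes tested. DESeq2 called 4 of the 51, against 5.59% of all genes tested. These were Sh2b2, Irs4, Stc2 and Pik3r3. The median log2 fold change was -0.05, against 0.01 over all genes tested. The groups did not overlap for 16 of the 51 genes, or 31.4%, against 23.8% of all genes tested. Of the 16, 7 were lower and 9 higher, against 11.5% and 12.3% of all genes tested.

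Among the proteases that cut binding proteins and their inhibitors, Htra1, a secreted serine protease, was the most abundant per length. It had 146.8, 190.5 and 177.3 CPM in knock-in and 205.3, 210.1 and 216.5 CPM in wild type, with every knock-in sample lower (log2 fold change -0.30 ± 0.10 (SE), adjusted p 0.16). Stc2, a stanniocalcin that inhibits pappalysins, had 3.3, 3.44 and 3.48 CPM in knock-in and 6.54, 5.01 and 4.47 CPM in wild type (-0.65 ± 0.17, adjusted p 0.091). Pappa, the gene of PAPP-A, had 8.53, 8.16 and 4.51 CPM in knock-in and 6.88, 8.09 and 5.42 CPM in wild type, with overlap (adjusted p 0.92). Pappa was named after its values were seen.

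Of 3 tested relatives of the binding proteins, Igfbp7 was the most abundant and had 24.6, 23 and 25.5 CPM in knock-in and 20.5, 18.9 and 22.4 CPM in wild type. Its groups did not overlap, at 0.25 ± 0.10 (SE, adjusted p 0.22). Kazald1 was at -0.03 ± 0.13 (adjusted p 0.94). The receptor relative Insrr had 0.97, 0.80 and 1.0 CPM in knock-in and 0.86, 0.81 and 0.93 CPM in wild type.

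Adaptors carry the signal from the receptors. The most abundant per length were Grb2, lower in every knock-in sample at -0.11 ± 0.08 (SE, adjusted p 0.49), and Sh2b1, at 0.13 ± 0.12 (adjusted p 0.59). Of the 11 adaptors, 4 were higher and 1 lower in every knock-in sample, or 45.5% without overlap, against 23.8% of all genes tested. The 4 were Sh2b2, Irs4, Shc1 and Grb10, all named after their values were seen. Sh2b2 had 5.12, 6.83 and 6.82 CPM in knock-in and 3.85, 3.82 and 4.08 CPM in wild type (0.68 ± 0.16, adjusted p 0.060). Irs4 had 2.81, 0.60 and 1.17 CPM in knock-in and 0.25, 0.55 and 0.28 CPM in wild type (2.08 ± 0.55, adjusted p 0.089). Irs4 was lowest of its group in knock-in replicate 2, as were the summed brainstem markers, and the part of these in the Irs4 difference was not tested.

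Of 21 PI3K, AKT and mTOR genes 17 had a negative value, against 8127 of all 16699 genes tested, with a median log2 fold change of -0.11. The groups did not overlap for 14.3% of the 21, against 23.8% of all genes tested. Pik3r3, a regulatory subunit of PI3K, had 190, 225.6 and 184.8 CPM in knock-in and 268.6, 262.2 and 239.4 CPM in wild type, with every knock-in sample lower (-0.36 ± 0.09, adjusted p 0.085). Gsk3a, a kinase that AKT inhibits, was at 0.06 ± 0.08 (adjusted p 0.73). Among the FOXO factors, which AKT keeps out of the nucleus, Foxo3 was at -0.17 ± 0.11 (adjusted p 0.44) and Foxo4 at 0.18 ± 0.13 (adjusted p 0.50). In the growth hormone axis, Stat5b was at 0.12 ± 0.11 (adjusted p 0.62) and Jak2 at -0.06 ± 0.09 (adjusted p 0.75). The 3 genes of IGF2 mRNA-binding proteins did not pass the filter.

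**Figure D5:**
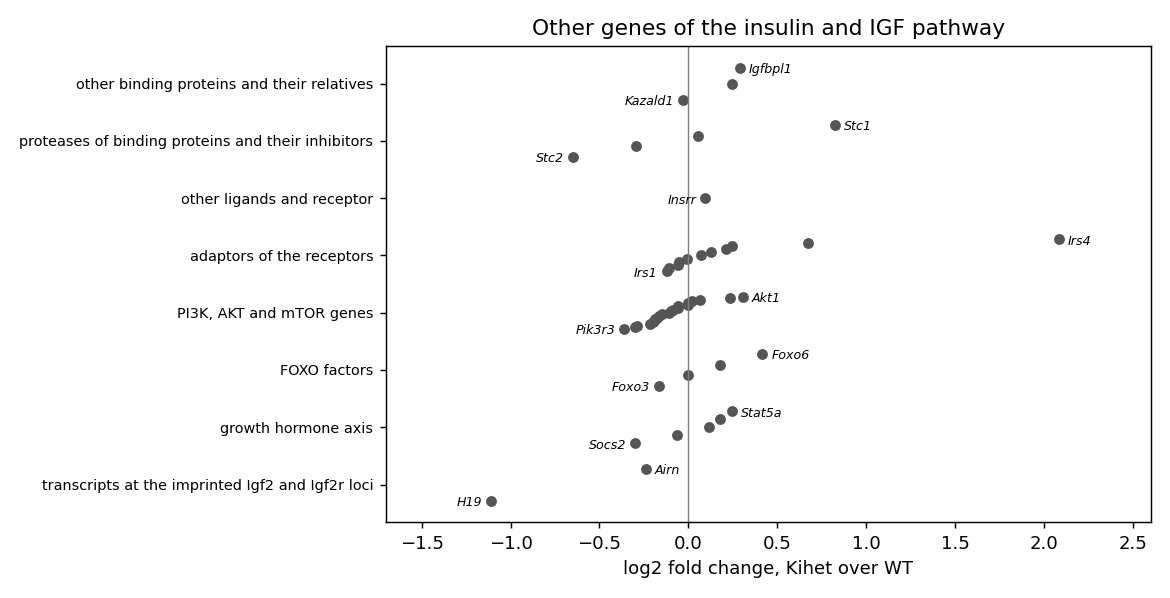
Log2 fold change of knock-in (Kihet) over wild type (WT) for the 51 tested genes of the wider insulin and IGF pathway, one point per gene in rows by group, with the lowest and highest of each row named. Values run from -1.11 for H19 to 2.08 for Irs4, and none of the 51 was called.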

How the data were processed

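Libraries were stranded and poly(A)-selected (TruSeq), per the labels' protocols. The authors deposited unnormalized read counts for Ensembl genes, made with HTSeq 0.6.1 after TopHat2 2.0.14 and Bowtie2 2.1.0 on mm10, per the submitters' processing notes. Neither the strand setting nor the annotation release of the counting is stated: not given in the sources used here. Symbols, positions and exon lengths came from GENCODE M21, which matched 48349 of 48709 identifiers.

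Tests used R 4.3.3 and edgeR 4.0.16: filterByExpr (minimum count 10, minimum total 15), TMM scaling, the quasi-likelihood F test with genotype alone, and Benjamini-Hochberg adjustment over all 16699 genes tested. The adjusted p of a called gene was no higher than 0.05. The standard error is the absolute log2 fold change divided by the square root of F. DESeq2 1.42.0 and limma 3.58.1 were alternatives. The procedure was tested on simulated data, where it called 73% of 100 genes changed 1.5-fold and 89% of 100 changed 2-fold. Of its calls there, 9% were unchanged genes, at the same limit of 0.05 on the adjusted p. Pairs of libraries within a group differed by more than sampling noise (chi-square per degree of freedom 13.06 to 28.14), so each counted as 1 sample.

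The members and the gene lists were chosen with earlier results of these data known. Named genes are all members, called genes and the 2 most abundant tested genes per kb of each pathway group, the 5 protein-coding genes nearest in pattern to Igfbp5 and to Igf2 with a mean CPM of at least 1 (predicted genes passed over, and 2 of those for Igf2 not reported here), and the 2 tested neighbours on each side of both. Lists of endothelial, pericyte, microglial, oligodendrocyte, interneuron and blood markers were also summed. Their knock-in to wild-type ratios of summed CPM were 0.856, 0.932, 1.01, 0.903, 0.831 and 0.924.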

Additional observations from a re-analysis of the deposited data

How the results depend on the processing

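Of the 9 members other than Igfbp5, a count added after seeing the data, 1 was called as reported, 2 with no filter on low counts (Igf2 at an edgeR adjusted p of 0.041), 3 with the replicate block, 5 with choroid plexus markers as a covariate, 0 with brainstem markers as a covariate, and 0 to 1 with a sample left out. With Igfbp5, which was selected on this contrast and whose count supports nothing, these were 2, 3, 4, 6, 0 and 1 to 2. Over all genes it was 318 as reported and 513 with library size alone (190 lower and 323 higher, against 213 and 105 as reported, with a median shift of 0.07 on the log2 scale). It was 1303 with no filter on low counts, 934 with DESeq2, 746 with quality weights and 2034 with the replicate block. It was 1453 and 3 with the choroid plexus and brainstem covariates, 651 with offsets for GC content and length, and 41 to 788 with a sample left out. Over the wider pathway list the count was 0 as reported, 1 with library size alone, 11 with no filter, 4 with DESeq2, 4 with quality weights, 11 with the replicate block, 6 with the choroid plexus covariate, 3 with the offsets and 0 to 3 with a sample left out. The cause of these changes was not tested.

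Equal replicate numbers are not stated to pair the samples. The deviations of same-numbered samples correlated at 0.001, 0.174 and 0.318, and those of differently numbered samples at -0.291 to 0.103. Whether the numbers mark a pairing was not tested. The block called Igf1r and Igf2 as well (adjusted p 0.046 and 0.012). Of 41 named genes with values, 25 results under an alternative had the opposite sign. For the members these were Igfbp6 at 0.068 with the brainstem covariate and Igf2 at 0.016 with the choroid plexus covariate. Under the choroid plexus covariate the values were 0.13 for Kazald1, -0.005 for Stat5b, 0.092 for Morn2, 0.16 for Lepr, -0.05 for Tns1 and 0.13 for Th. Under the brainstem covariate they were -0.024 for Insrr, 0.053 for Jak2 and -0.054 for Mrpl23. With the offsets they were -0.17 for Gsk3a, -0.042 for Insrr, -0.086 for Sh2b1 and -0.021 for Rpl37a. With library size alone they were 0.008 for Jak2 and 0.048 for Kazald1. With quality weights they were 0.008 for Kazald1 and -0.034 for Tns1. With a sample left out, signs were mixed for 4 genes, from -0.006 to 0.105 for Gsk3a, -0.103 to 0.084 for Kazald1, -0.092 to 0.106 for Tns1 and -0.386 to 0.090 for Th. Igfbp4 ranged from 0.98 to 1.33 with a sample left out.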
